A study of Mus musculus with 6 samples.

Results

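The cyclophilins are the proteins to which cyclosporin A binds, and their transcripts were measured here in the back skin of mice given that drug. All probes whose accession mapped to Ppia, Ppib, Ppic, Ppid, Ppie, Ppif, Ppig, Ppih or Ppil1 were taken. Of these 9 genes, 8 had a probe on the array, among 16358 named genes. They were measured by 11 of the array's 41174 probes, on 20 of its 45018 spots. Ppia had 1 probe printed on 10 spots, Ppib, Ppid and Ppie had 2 probes each, and Ppic, Ppif, Ppih and Ppil1 had 1 each. Ppig, a nuclear cyclophilin with a long tail rich in arginine and serine, matched no probe and is not analysed here. All 11 probes were well above background in both channels on 6 of 6 arrays, and all 11 were among the 27938 probes tested.

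Cyclophilins are peptidyl-prolyl isomerases, enzymes that turn the bond before a proline from one form to the other and so help proteins to fold. Each member has its place in the cell: the cytosol (Ppia and Ppid), the secretory pathway (Ppib and Ppic), the mitochondrial matrix (Ppif), or the nucleus, where several are parts of the spliceosome (Ppie, Ppig, Ppih and Ppil1). Cyclosporin A occupies the isomerase pocket, and the complex of drug and cyclophilin, chiefly with Ppia in T cells, binds and blocks the phosphatase calcineurin. Calcineurin otherwise frees NFAT transcription factors to enter the nucleus.

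The tested skin came from C57/BL mice 2, 4 or 7 days after cyclosporin A, and the skin it was set against came from C57/BL mice at the same days after ethanol, the vehicle. The labels used here give neither the age of the animals, the dose nor the number of animals in a sample. Each of 6 Agilent whole mouse genome arrays, 2 for each day, held 1 cyclosporin A sample labelled with Cy5 and 1 ethanol sample labelled with Cy3. The submitters describe the 2 arrays of a day as biological replicates, but nothing used here ties them to separate animals. The p-values therefore measure how far these arrays differ, which may be technical.

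Below, a ratio is the log2 of cyclosporin A over ethanol within an array, and an intensity is a normalized signal in arbitrary units. A probe was called where its limma test had a Benjamini-Hochberg adjusted p under 0.05 over all probes tested. Of the spots other than controls, between 60.6% and 69.5% were well above background in the cyclosporin A channel. In the ethanol channel between 44.4% and 57.2% were, and 0 spots were saturated. The 4 keratinocyte markers and the 5 fibroblast markers of the lists used here were above background in both channels of every array. Replicate 1 of day 7 stood apart. Over the 204 probes printed on 10 spots, the median SD between a probe's own spots was 0.26 there and 0.07 to 0.08 on the other arrays, and 126 spots there were marked as outliers against 15 to 44 elsewhere. The dyes were not swapped, so a dye effect of a probe's own cannot be told apart from treatment. Days 2 and 4 shared slide 1 and day 7 lay on slide 2, so slide and day 7 cannot be told apart.

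Across the family, the probes of Ppil1, Ppih and Ppid were called higher in cyclosporin A skin on average over the days. That of Ppia, the most studied binding partner, was not called. Both results depended on the processing, as given below. Averaged over the 3 days, 4 of the 11 probes were called higher and 0 lower, namely those of Ppil1 and Ppih and both of Ppid. Of all 27936 probes tested on that average, 12.9% were called, 9.36% higher and 3.57% lower, and 32.3% had an unadjusted p under 0.05, as did 4 of the 11. At day 7, 1 of the 11 was called higher, that of Ppil1, where 2.59% of all probes were called, 2.04% higher and 0.544% lower. At unadjusted p under 0.05, 4 of the 11 passed at day 7, against 21.4% of all probes. At day 4, limma called 0 of the 11 (0.00358% of all probes) and 3 had an unadjusted p under 0.05 (15.4% of all probes). At day 2 it called 0 of the 11 (0% of all probes) and 1 had an unadjusted p under 0.05 (9.73% of all probes). The median ratio of the 11 was 0.03, 0.12 and 0.21 at days 2, 4 and 7, where that of all probes was 0.03 at each.

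**Figure D1:**
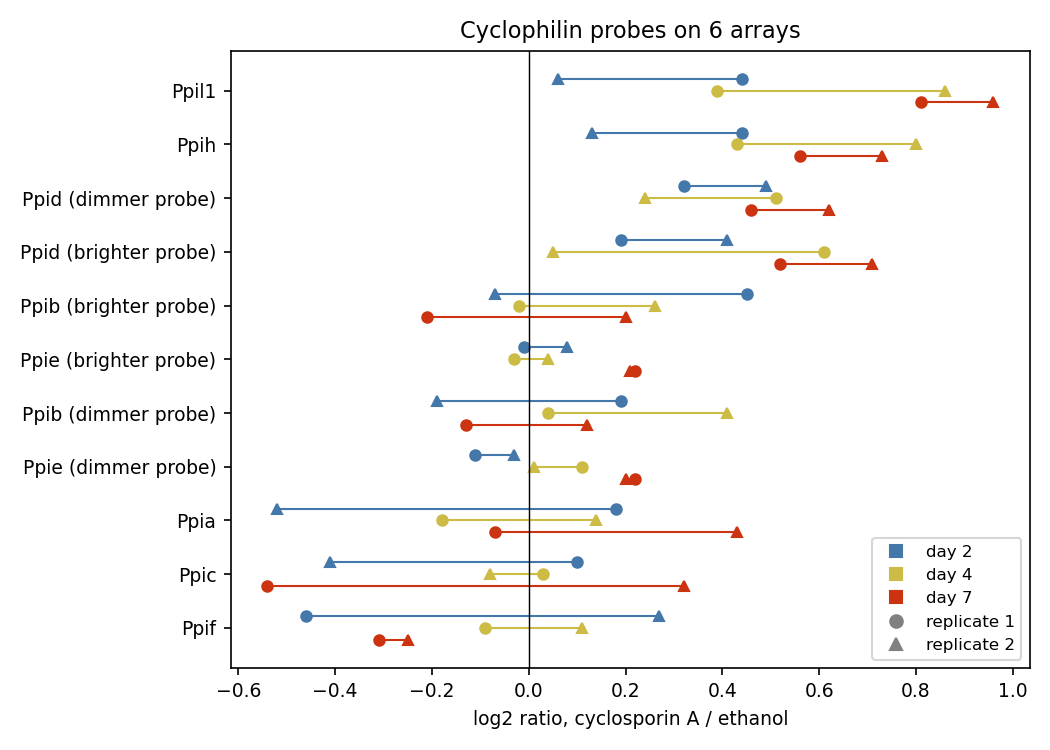
The log2 ratio of cyclosporin A over ethanol (x axis) of each of the 11 cyclophilin probes (rows) on each array; colours give the day, circles replicate 1 and triangles replicate 2, and a line joins the 2 arrays of a day. The probes of Ppil1, Ppih and Ppid lay above 0 on 6 of 6 arrays, while Ppia ran from -0.52 to 0.43.

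Ppil1 is a small cyclophilin of the spliceosome, where it joins the factor Snw1 in the machinery activated for splicing. Its normalized intensity was 1005 and 826 in cyclosporin A skin of day 2, against 741 and 792 in ethanol skin. At day 4 it was 956 and 1015 in cyclosporin A skin, against 730 and 558 in ethanol skin, and at day 7 it was 1622 and 1794, against 923 and 922. The cyclosporin A samples of each day lay above both ethanol samples of that day, and those of day 7 above every other sample. From the highest, cyclosporin A skin of day 7 was followed by cyclosporin A skin of day 4, ethanol skin of day 7 and cyclosporin A skin of day 2, and then by ethanol skin of days 2 and 4. The range of cyclosporin A skin of day 2 overlapped those of cyclosporin A skin of day 4 and ethanol skin of day 7.

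As a ratio within the arrays, Ppil1 stood at 0.44 and 0.06 at day 2, 0.39 and 0.86 at day 4, and 0.81 and 0.96 at day 7. At day 7 Ppil1 was 1.85-fold higher in cyclosporin A than in ethanol skin (log2 0.89, SE 0.16, 95% interval 0.51 to 1.27, limma adjusted p = 0.0418). That ratio lay at the 98.3rd percentile of all probes. On average over days Ppil1 was 1.5-fold higher in cyclosporin A skin (log2 0.59, SE 0.09, limma adjusted p = 0.0166). In a bulk sample, more RNA per cell and more cells of a type that holds the RNA cannot be told apart. The call at day 7 did not hold without either array of day 4 (adjusted p = 0.0711 for each) or without replicate 1 or replicate 2 of day 7 (0.203 and 0.22). On the scanner software's own processed signals the ratio was 0.81 (limma adjusted p = 0.142), and on the deposited ratios 0.79 (0.155).

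Ppih, a cyclophilin that binds the Prpf3 and Prpf4 proteins of the U4/U6.U5 small nuclear ribonucleoprotein, gave a like picture. Its intensity was 3344 and 2841 in cyclosporin A skin of day 2, against 2473 and 2598 in ethanol skin. At day 4 it was 3236 and 3002, against 2406 and 1718, and at day 7 it ranged from 3629 to 3646 in cyclosporin A skin, against 2192 to 2466 in ethanol skin. All 6 cyclosporin A samples lay above all 6 ethanol samples. Among the cyclosporin A samples days 2 and 4 overlapped, and among the ethanol samples days 4 and 7 did.

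The ratio of Ppih was 0.44 and 0.13 at day 2, 0.43 and 0.80 at day 4, and 0.56 and 0.73 at day 7. On average over days Ppih was 1.43-fold higher in cyclosporin A than in ethanol skin (log2 0.51, SE 0.08, limma adjusted p = 0.0177). At day 7 alone the ratio was 0.65 (SE 0.15, 95% interval 0.3 to 0.99, limma adjusted p = 0.0732), and at day 4 it was 0.62 (limma adjusted p = 0.185), so neither day was called. The averaged call was lost when any 1 of the 4 arrays of days 4 and 7 was left out (adjusted p 0.0508 to 0.0854), with the software's processed signals (ratio 0.44, adjusted p = 0.0672) and with the deposited ratios (ratio 0.43, adjusted p = 0.0729).

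The promoters of these nuclear members are shown beside that of Ppia because Ppil1 and Ppih moved together while Ppia did not. Each is the 250 bases before the start of the gene in RefSeq's promoter table for GRCm38.p6, and 6 of the 9 members were matched there. Ppid, which was also called higher on average, was not among the 6, so its window could not be set beside these. Capitals mark the core GGAAA bound by NFAT and the letters CCGGAAGT, a form of the site of ETS factors, on either strand, so that the cores also read TTTCC and ACTTCCGG.
Ppil1 (GRCm38.p6, chr17:29263972-29264221, minus strand): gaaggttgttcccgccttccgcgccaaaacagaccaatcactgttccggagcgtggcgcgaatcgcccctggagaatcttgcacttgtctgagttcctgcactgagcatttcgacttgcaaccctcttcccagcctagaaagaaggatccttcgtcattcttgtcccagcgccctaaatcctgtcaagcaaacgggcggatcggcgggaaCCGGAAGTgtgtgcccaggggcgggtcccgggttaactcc
Ppih (GRCm38.p6, chr4:119320524-119320773, minus strand): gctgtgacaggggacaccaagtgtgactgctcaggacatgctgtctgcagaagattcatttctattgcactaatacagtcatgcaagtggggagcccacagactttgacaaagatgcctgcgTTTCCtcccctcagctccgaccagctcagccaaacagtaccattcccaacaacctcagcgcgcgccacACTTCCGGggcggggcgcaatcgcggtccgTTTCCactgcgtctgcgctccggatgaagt
Ppia (GRCm38.p6, chr11:6415617-6415866, plus strand): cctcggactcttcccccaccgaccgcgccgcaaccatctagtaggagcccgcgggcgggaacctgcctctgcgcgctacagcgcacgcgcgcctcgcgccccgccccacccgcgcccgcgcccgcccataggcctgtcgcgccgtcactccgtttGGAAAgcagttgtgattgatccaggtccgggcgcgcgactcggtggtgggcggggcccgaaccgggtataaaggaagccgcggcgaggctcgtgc

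These motifs were chosen after the sequences had been seen, and a match describes letters only. The letters CCGGAAGT lay 40 bases before the start in Ppil1 and 60 in Ppih, were also present in Ppif, 196 bases before its start, and were found in 2.88% of the 32851 windows of the table. In Ppih they shared 1 base with a GC box, GGGCGG, which all 6 members carried and 32.7% of windows. Ppia had GGAAA 95 bases and TATAAA 29 bases before its start, and Ppih had GGAAA at 128 and 30 bases. GGAAA was found in 55.6% of windows and TATAAA in 12.4%. The window of Ppib, which is not shown, held neither CCGGAAGT nor GGAAA. The window of Ppil1 held none of the 5 letters GGAAA on either strand, but held TTTCGCGC or TTTGGCGC, forms of the E2F site, at 230 bases, which 0.654% of windows did.

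Ppie, the third spliceosomal member, combines an RNA recognition motif with its isomerase domain. Its dimmer probe gave intensities of 366 and 390 in cyclosporin A skin of day 2, against 395 and 397 in ethanol skin. The same probe gave 339 and 333 at day 4, against 314 and 331, and 413 and 378 at day 7, against 355 and 330. Its brighter probe gave 417 and 427 at day 2, against 421 and 403, then 374 and 368 at day 4, against 383 and 357, and finally 502 and 495 at day 7, against 430 and 429. At day 7 the cyclosporin A samples lay above the ethanol samples with both probes. The ratio there was 0.21 with each probe (95% intervals -0.05 to 0.47 and -0.04 to 0.47, limma adjusted p = 0.32 and 0.305), which was not called. The largest gap between the 2 probes on an array was 0.14.

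**Figure D2:**
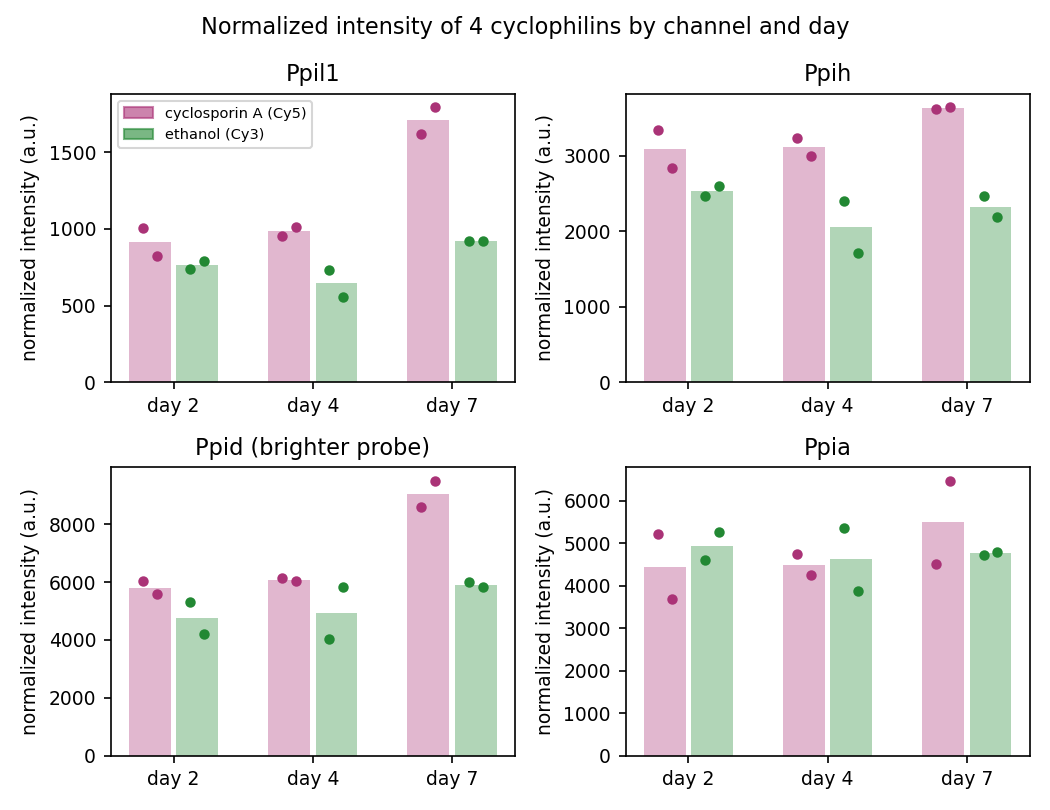
Normalized intensity (y axis, arbitrary units) of Ppil1, Ppih, the brighter Ppid probe and Ppia by day, cyclosporin A (Cy5, purple) left of ethanol (Cy3, green). Points are samples and bars their mean (n = 2); the cyclosporin A samples of Ppil1, Ppih and Ppid lay above the ethanol samples of each day, and those of Ppia did not.

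Ppid is a cytosolic cyclophilin with tetratricopeptide repeats that bind the chaperone Hsp90, and it sits in unliganded steroid receptor complexes. Its brighter probe had 6046 and 5576 in cyclosporin A skin of day 2, against 5311 and 4203 in ethanol skin. That probe had 6131 and 6028 at day 4, against 4022 and 5821, and 8610 and 9500 at day 7, against 5985 and 5822. Its dimmer probe had 6133 and 6082 at day 2, against 4906 and 4342, then 6480 and 6564 at day 4, against 4551 and 5566, and finally 7071 and 7217 at day 7, against 5135 and 4692. With each probe the cyclosporin A samples of a day lay above the ethanol samples of that day.

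The ratios of the dimmer Ppid probe ran from 0.24 to 0.62 and those of the brighter one from 0.05 to 0.71, and the 2 probes differed by at most 0.19 on an array. Averaged over days, the dimmer probe was 1.36-fold higher in cyclosporin A than in ethanol skin (log2 0.44, SE 0.07, limma adjusted p = 0.0183). The brighter one was 1.33-fold higher (log2 0.41, SE 0.09, limma adjusted p = 0.0338). At day 7 the dimmer and brighter probes gave 0.54 and 0.62 (limma adjusted p = 0.0793 and 0.101), at day 4 0.37 and 0.33 (0.252 and 0.38), and at day 2 0.4 and 0.3 (0.479 and 0.586). The called averages of Ppil1, Ppih and the dimmer Ppid probe held when either array of day 2 was left out, and that of the brighter Ppid probe did not. On the processed signals and on the deposited ratios the brighter Ppid probe was not called on average either (limma adjusted p = 0.114 and 0.128). When any 1 of the 4 arrays of days 4 and 7 was left out, the averaged calls of the 11 probes were all lost. A smaller share of all probes was then called as well, so the loss was not particular to the members. The averaged ratios of Ppil1, Ppih and Ppid themselves stayed above 0, between 0.51 and 0.67 for Ppil1.

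Ppia, the abundant cytosolic cyclophilin A and the main partner through which the drug reaches calcineurin, showed no change that the test called. Its intensity was 5231 and 3680 in cyclosporin A skin of day 2, against 4616 and 5277 in ethanol skin. It was 4741 and 4263 at day 4, against 5366 and 3880, and 4527 and 6477 at day 7, against 4736 and 4800. The 2 groups overlapped on every day. The ratio averaged 0 over the days (SE 0.12, 95% interval -0.28 to 0.28, limma adjusted p = 0.991), and the interval leaves room for a change of up to 0.28 either way. At days 2, 4 and 7 it was -0.17, -0.02 and 0.18, with adjusted p of 0.815, 0.972 and 0.634. The mouse genome is known to hold many processed copies of Ppia, and binding of their transcripts to this probe was not tested.

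Because Ppia was printed on 10 spots, its spread within an array could be set against that between arrays. The spots had means of 0.18 and -0.52 at day 2, -0.18 and 0.14 at day 4, and -0.07 and 0.43 at day 7. Their SD within an array was 0.07 to 0.10 on 5 arrays and 0.39 on replicate 1 of day 7, while the 6 array means had an SD of 0.33. At days 2 and 4 the replicates of a day differed by 0.70 and 0.32, more than the spots of an array did. On replicate 1 of day 7 the spots ran from -0.73 to 0.35, and the lowest 2 lay in columns 21 and 4. The raw Cy5 signal of its 10 spots varied by 30.8% there (SD over mean) and by 14.8% to 16.5% on the other arrays, while the raw Cy3 signal varied by 15.3% to 17.1% on all 6. Without the spots in columns 4 and 21, left out after their values were seen, the mean of that array was 0.10.

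**Figure D3:**
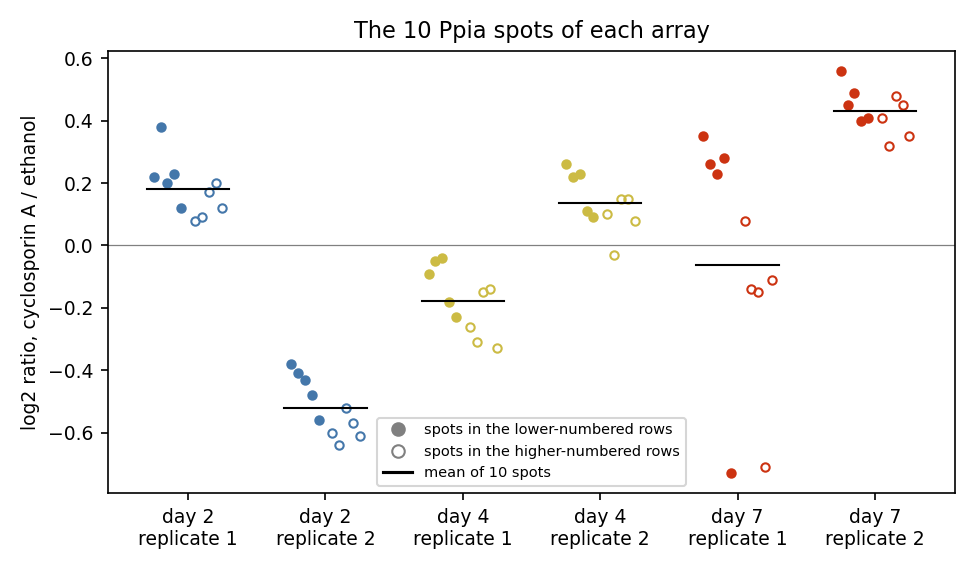
The log2 ratio of cyclosporin A over ethanol (y axis) at each of the 10 Ppia spots of each array (x axis), with filled circles for the spots in the lower-numbered rows, open circles for the others, and a line at their mean. The spots of an array lie close together except on replicate 1 of day 7, where they run from -0.73 to 0.35.

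Ppib and Ppic work in the secretory pathway. Ppib is the cyclophilin of the endoplasmic reticulum that acts on procollagen with Crtap and P3h1, and its brighter probe had 17622 and 13320 in cyclosporin A skin of day 2, against 12910 and 14031 in ethanol skin. That probe had 15482 and 14534 at day 4, against 15751 and 12165, and 15842 and 19126 at day 7, against 18293 and 16654. The groups overlapped on every day with both probes. The dimmer probe ran from 940 to 1382 in cyclosporin A skin, against 707 to 1286 in ethanol skin. At day 7 the ratios were -0.01 and 0 (95% intervals -0.37 to 0.36 and -0.42 to 0.41), with limma adjusted p of 0.981 and 0.991. The 2 Ppib probes differed by up to 0.26 on an array and had the same sign on 5 of 6 arrays.

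Ppic, a cyclophilin of the secretory pathway known to bind the secreted protein Lgals3bp, had the widest gap between the replicates of a day, 0.86 on the log2 scale at day 7. It had 20400 and 15847 in cyclosporin A skin of day 2, against 18971 and 21119, and 19514 and 17152 at day 4, against 19100 and 18112. At day 7 the cyclosporin A samples had 12514 and 23845, on either side of the ethanol samples, which had 18213 and 19080. The ratio there was -0.11 (95% interval -0.63 to 0.41, limma adjusted p = 0.801). The low value was that of replicate 1 of day 7, the array whose spots disagreed, and without that array the ratio was 0.32, against -0.54 without replicate 2. On the scanner software's processed signals it was 0.18 at day 7.

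Ppif, cyclophilin D of the mitochondrial matrix, is the regulator through which cyclosporin A delays the opening of the permeability transition pore. Its intensity was 783 and 1032 in cyclosporin A skin of day 2, against 1080 and 857 in ethanol skin, and 935 and 971 at day 4, against 998 and 902. At day 7 it was 696 and 713 in cyclosporin A skin, below the ethanol samples with 862 and 847. It was the 1 member whose cyclosporin A samples both lay below the ethanol samples at day 7. That ratio, -0.28, was not called (SE 0.18, 95% interval -0.7 to 0.15, limma adjusted p = 0.406), and the replicates of day 2 had opposite signs, -0.46 and 0.27.

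Whether the response of a member differed between days was tested as a difference of ratios. Limma called 0 of the 11 for day 7 minus day 2, where it called 0.222% of all probes, and 1 of the 11 had an unadjusted p under 0.05 (5.72% of all probes). That was Ppil1, with a difference of 0.64 (SE 0.23, unadjusted p = 0.026, limma adjusted p = 0.796). It called 0 of the 11 for day 7 minus day 4 (0.168% of all probes) and 0 for day 4 minus day 2 (0%), and 0 had an unadjusted p under 0.05 in either, against 4.3% and 2.22% of all probes. The higher ratio of Ppil1 at day 7 was therefore not shown to differ from that at day 2.

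Within each channel, day 7 was also set against day 2 on log2 intensities. In cyclosporin A skin Ppil1 was 0.9 higher at day 7 (SE 0.17, limma adjusted p = 0.0695), and in ethanol skin 0.27 higher (SE 0.16, limma adjusted p = 0.564). Limma called 0 of the 11 in either channel, against 0.77% of all probes in the cyclosporin A channel and 0.0322% in the ethanol channel. At unadjusted p under 0.05, 2 of the 11 passed in the cyclosporin A channel (13.4% of all probes), Ppil1 and the brighter Ppid probe (0.64, limma adjusted p = 0.14), and 0 in the ethanol channel (10.8%). The dimmer Ppid probe gave 0.23 in the cyclosporin A channel.

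**Figure D4:**
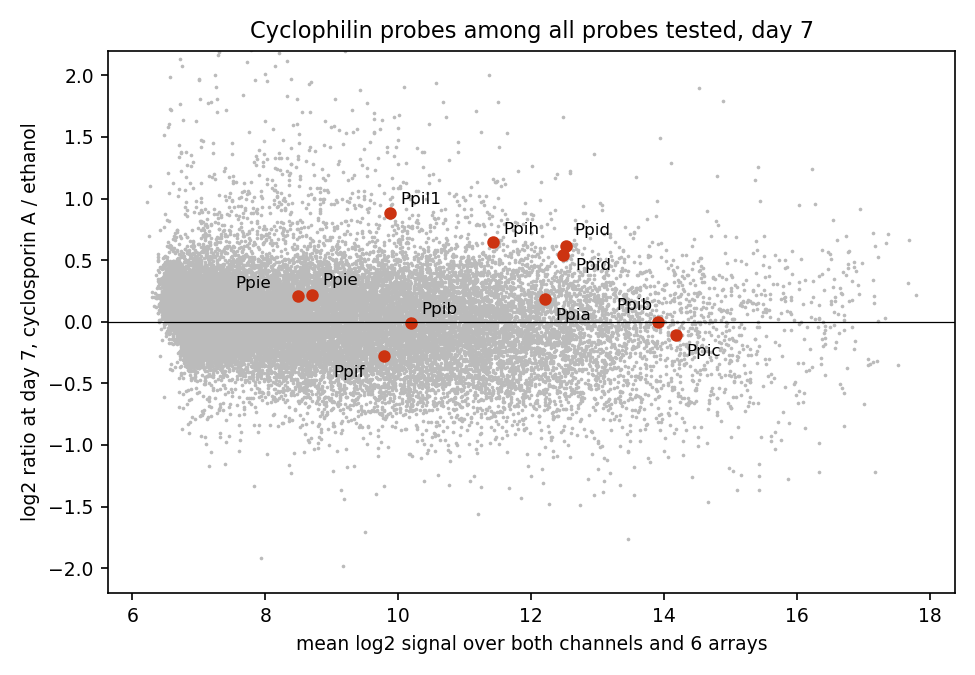
The log2 ratio of cyclosporin A over ethanol at day 7 (y axis) against the mean log2 signal of a probe over both channels and 6 arrays (x axis), for all probes tested (grey) and the 11 cyclophilin probes (red). Ppil1 at 0.89 (98.3rd percentile) and Ppih at 0.65 (96.9th) lie in the upper part of the grey cloud, as do the Ppid probes at 0.54 and 0.62. Outside the y range of -2.2 to 2.2 lie 64 probes.

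The genes that work with the cyclophilins were taken from lists, each gene by its brightest probe. Of the 13442 named genes tested at day 7, 2.78% were called higher, 0.811% lower and 24.8% had an unadjusted p under 0.05, and their median ratio was 0.03. On average over days 9.81% were called higher and 4.15% lower, and 33.4% had an unadjusted p under 0.05. Among 11 spliceosome partners tested, of 12 listed, 1 was called higher at day 7 and 0 lower, 5 had an unadjusted p under 0.05, and the median was 0.19. The 1 called was Prpf4, the partner of Ppih named above, with ratios of 0.22 and 0.44 at day 2, 0.55 and 0.72 at day 4, and 0.71 and 0.58 at day 7. Prpf4 was 1.56-fold higher in cyclosporin A than in ethanol skin at day 7 (log2 0.64, SE 0.12, limma adjusted p = 0.048). On average it was 1.45-fold higher (log2 0.54, SE 0.07, limma adjusted p = 0.0124). The day 7 call of Prpf4 was lost whichever of the 6 arrays was left out (adjusted p 0.0564 to 0.284), and its averaged call when replicate 1 or replicate 2 of day 4 was (0.0549 and 0.0766). On average 2 of the 11 partners were called higher, Prpf4 and Prpf31, a protein that bridges U4 and U5 particles (log2 0.37, SE 0.09, limma adjusted p = 0.0359). Other partners had ratios below 0, named here after their values were seen. Prpf8, the scaffold protein at the core of the spliceosome, had -0.60 at day 7 (limma adjusted p = 0.218) and Prpf19, a ubiquitin ligase of the activated spliceosome, -0.57 (0.144), both among the 5. Snw1, the partner of Ppil1, had -0.26 at day 7 and -0.24 on average (limma adjusted p = 0.33 and 0.0884).

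Other cyclophilin-domain genes did not share 1 direction. Of 8 listed, 6 were tested, limma called 0 at day 7 and 2 had an unadjusted p under 0.05, and the median was -0.1. The largest were Ppil2, a U-box protein of the spliceosome, at -0.62 (limma adjusted p = 0.159), and Ppil3, another spliceosomal member, at 0.48 (0.103). On average over days Ppil3 was the 1 gene called, with 0.45 and 0.15 at day 2, 0.35 and 0.18 at day 4, and 0.54 and 0.43 at day 7 (log2 0.35, SE 0.07, limma adjusted p = 0.0295).

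The FK506-binding proteins are the isomerase family bound by tacrolimus, the other drug that blocks calcineurin. Of 14 tested (17 listed), limma called 0 at day 7, 1 had an unadjusted p under 0.05, and the median was 0.13. The largest were Fkbp11, an isomerase of the secretory pathway, at 0.78 (limma adjusted p = 0.269), and Fkbp3, a nuclear member, at 0.53 (0.0771). Fkbp3 was the 1 called on average, at 0.36 (SE 0.07, limma adjusted p = 0.0263).

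Calcineurin, the target of the complex, was represented by 8 genes of its subunits and regulators. Limma called 0 of the 8 at day 7, 2 had an unadjusted p under 0.05, and the median was 0.01. The catalytic subunits Ppp3ca and Ppp3cb had -0.56 and 0.31 at day 7 (limma adjusted p = 0.196 and 0.248). On average the catalytic subunit Ppp3cc was the 1 called, with ratios from 0.27 to 0.35 on the 6 arrays (log2 0.31, SE 0.06, limma adjusted p = 0.0259).

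The partners of Ppid, Hsp90 and its cochaperones, held 11 genes, of which limma called 0 at day 7, 2 had an unadjusted p under 0.05, and the median was -0.07. Hsp90ab1, the constitutive cytosolic Hsp90, had -0.64 (limma adjusted p = 0.195) and the phosphatase Ppp5c 0.42 (0.145). On average 2 were called higher, Ppp5c at 0.33 (limma adjusted p = 0.0359) and the p23 cochaperone Ptges3 at 0.31 (0.0377). Of 13 genes that fold collagen with Ppib, limma called 0 at day 7, 1 had an unadjusted p under 0.05, and the median was -0.15. The largest were the disulfide isomerases Pdia3 at -0.52 and Pdia4 at 0.38 (limma adjusted p = 0.252 and 0.126), and Pdia4 was the 1 called on average, at 0.28 (0.0378).

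Of 8 genes linked to the permeability transition with Ppif, limma called 0 at day 7 and 0 on average, and 2 had an unadjusted p under 0.05 in each. The largest at day 7 were the ADP/ATP carriers Slc25a4 at -0.5 and Slc25a5 at 0.37 (limma adjusted p = 0.179 and 0.182). Of the 2 extracellular partners, limma called 0 at day 7 and 0 on average, and 1 had an unadjusted p under 0.05 in each. Bsg, the surface receptor of secreted Ppia, had -0.47 (limma adjusted p = 0.181) and Lgals3bp 0.58 (0.504). Beside Prpf4, the 7 genes of these lists called on average were named after their values were seen. For 6 of the 7 that call was lost whichever of the 6 arrays was left out, and that of Ppil3 held when replicate 2 of day 2 was left out but not when any other array was. On the scanner software's processed signals and on the deposited ratios, 0 of the 7 were called on average (adjusted p 0.0502 to 0.19), and Prpf4 was not called at day 7 (0.155 and 0.178).

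**Figure D5:**
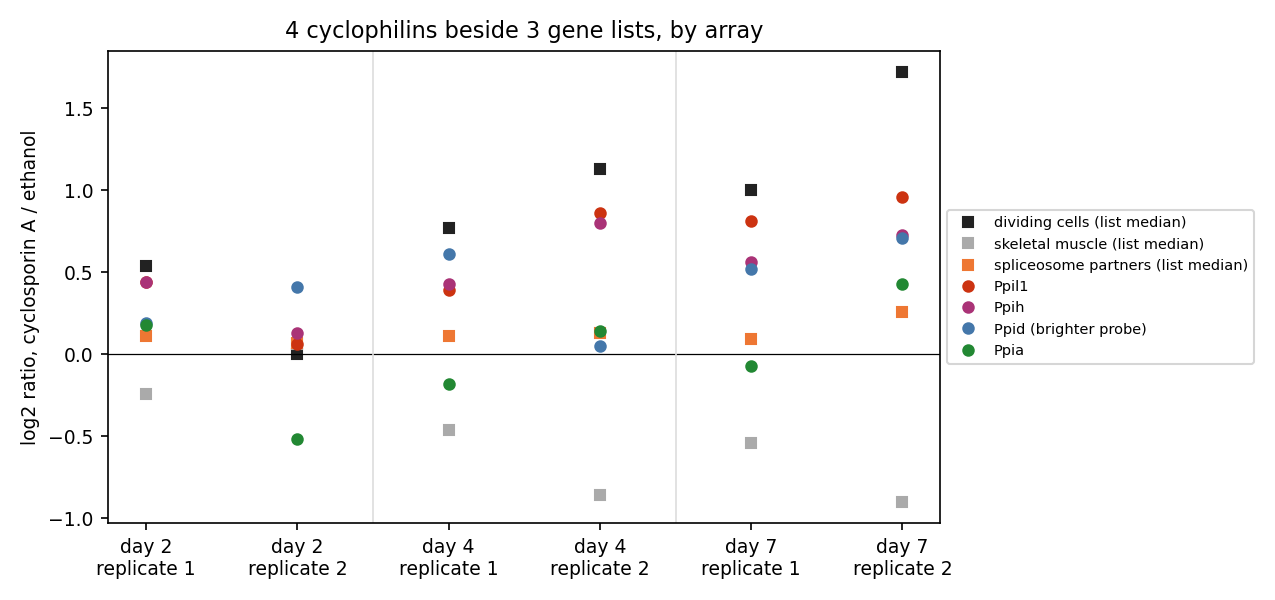
The log2 ratio of cyclosporin A over ethanol (y axis) on each array (x axis) of Ppil1, Ppih, the brighter Ppid probe and Ppia (circles) and the median of 3 gene lists (squares). On replicate 2 of day 2 the median of the dividing-cell markers was 0 and Ppil1 stood at 0.06. On replicate 2 of day 7 these were 1.72 and 0.96. On replicate 2 of day 4 Ppih was highest, at 0.8, and the brighter Ppid probe lowest, at 0.05.

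Markers of several cell types also differed between the groups. Of 10 markers of dividing cells tested (11 listed, with Mki67 not matched to a probe), 8 were called higher at day 7 and 0 lower, with a median of 1.36. The median of these markers over the arrays was 0.54 and 0 at day 2, 0.77 and 1.13 at day 4, and 1 and 1.72 at day 7. Ppil1 and Ppih too had their lowest ratio on replicate 2 of day 2. Ppil1 was highest on replicate 2 of day 7, as the markers were, but Ppih on replicate 2 of day 4, at 0.8. Replicate 1 of day 2 had a marker median of 0.54 and Ppil1 at 0.44, and replicate 1 of day 4 had 0.77 and 0.39. Those 2 arrays were not taken as a pair. The dimmer and brighter Ppid probes stood at 0.49 and 0.41 on replicate 2 of day 2. They had their lowest ratios, 0.24 and 0.05, on replicate 2 of day 4. The summed intensity of the dividing-cell markers at day 7 was 30956 to 47477 in cyclosporin A skin, against 15476 to 15649 in ethanol skin. Of 9 markers of the growing hair follicle, 9 were called higher at day 7, with summed intensities of 202287 to 239626 in cyclosporin A skin, against 4455 to 5833 in ethanol skin, where 4 to 6 of the 9 were well above background. Of 7 skeletal muscle markers, 3 were called lower at day 7, with a median of -0.73 and sums of 266318 to 358370, against 410665 to 454187. Of 3 melanocyte markers tested (4 listed), Pmel, Dct and Tyrp1, all 3 were called higher at day 7, at 2.74, 2.37 and 2.01 (limma adjusted p = 0.00395, 0.0146 and 0.00761), with sums of 30687 to 34809 in cyclosporin A skin, against 5539 to 7021 in ethanol skin. Their median over the arrays was 1.73 and 0.53 at day 2, 1.60 and 1.52 at day 4, and 2.11 and 2.62 at day 7. Of 27 markers of keratinocytes, fibroblasts, macrophages, T cells, adipocytes and endothelium, limma called 0 at day 7 and 6 had an unadjusted p under 0.05. On average 1 of the 27 was called higher, Fabp4 of adipocytes at 0.54, and 2 lower, Cd163 of macrophages at -0.63 and Cd5 of T cells at -0.43 (limma adjusted p = 0.0426, 0.0413 and 0.0301). The part of these cell types in the cyclophilin ratios was not tested.

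Likeness over the arrays was measured for Ppil1, the member whose day means ranged most widely (0.64). Among 13326 other named genes, the smallest root mean square differences over 6 arrays were those of Zwilch (0.068), Prim2 (0.09) and Siva1 (0.098). Zwilch had ratios of 0.34 and 0 at day 2, 0.41 and 0.92 at day 4, and 0.88 and 1.04 at day 7. With 6 arrays and so many genes, this describes the samples and carries no test.

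The scaling of the arrays set how many members lay above 0. With each array centred on its median in place of the intensity-dependent loess fit, all 11 probes were called higher on average, where 57.1% of all probes were called in either direction. The centring used all spots other than controls and outliers. Under that scaling the median of the probes tested, which had passed the filter, stood at 0.36, 0.24 and 0.15 at days 2, 4 and 7. Ppil1 then lay 1.18 above that median at day 7, Ppih 1.04, the Ppid probes 1.02 and 1.13, Ppia 0.65 and Ppif -0.06. The direction of Ppil1, Ppih and Ppid was thus the same under both scalings, while Ppia, at 0 on average under loess, was called higher under median centring.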

How the data were processed

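Total RNA of back skin was hybridised to 6 two-colour arrays. The deposited scanner files hold spot intensity in both channels, which Agilent Feature Extraction 9.1 wrote, per the submitters' processing notes. Its processed intensity was background-subtracted, detrended and dye-normalized, per the file headers. A deposited table of values holds the authors' log10 ratio of Cy5 over Cy3 and equals that software's ratio column (largest difference 0).

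Here background correction of the median intensities used normexp with offset 50, and normalization used loess for each array (limma 3.58.1, R 4.3.3), with 1639 control spots at weight 0 and outlier spots left out. Spots of a probe were averaged, and a probe was kept where, on some day, both arrays showed it well above background in a channel. Accessions named 22951 probes through a RefSeq table (GRCm38.p6), and 18223 stayed unnamed. One mean per day was fitted with limma to 6 log2 ratios (residual degrees of freedom 3, prior 3.93, with a prior SD of 0.2). Intervals are 95% and the number of arrays limits the precision. Channels were compared between days after the distribution of the spots' mean log2 intensity over both channels was made equal across arrays. The fit was tested on simulated data. Of each list of partner genes, those called on any day were named, or else the 2 largest at day 7, and marker lists were given mainly by counts. One further short list of partner genes is not reported here. Members and lists were chosen with earlier results of these data known. Alternatives were the software's signals and ratios, other offset, scaling, filters and probes, arrays left out, a replicate block, and tile medians subtracted.

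Replicate numbers come from the titles. Deviations of same-numbered arrays correlated at 0.03, -0.27 and -0.02 between days, so the numbers were not taken to pair samples.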

Additional observations from a re-analysis of the deposited data

How the results depend on the processing

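Values of single cyclophilin probes were recomputed under 16 alternative settings and 1 chosen after the data were seen (the median of each tile of spots subtracted). Of 1546 values, 1487 kept their side of the threshold and their direction where called, and most of these were uncalled throughout. Among them 111 uncalled values changed sign. Of the rest, 32 lost a call, 22 gained one and 5 were called with the opposite sign. Ppil1 at day 7 lost its call in 9 of 16 settings. The averaged call was lost in 4 of 16 for Ppil1 and 6 of 16 for Ppih. For the dimmer Ppid probe it was lost in 4 of 15 and for the brighter in 9 of 16. At day 7, where 1 probe was called (2.59% of all probes), 0 were called on the scanner software's processed signals (0.945% of all probes). On the deposited ratios 0 were called (0.966%), and with scale normalization 0 (1.13%). Without the filter 0 were called (1.56%, Ppil1 limma adjusted p = 0.0505). With tile medians subtracted 2 were called (4.09%), Ppih at 0.77 and Ppil1 at 1.01. The call of Ppil1 was also lost when any 1 array of days 4 and 7 was left out. On average, where 4 were called (12.9% of all probes), 2 were on the processed signals (7.74%) and 2 on the deposited ratios (6.7%). Both times these were Ppil1 and the dimmer Ppid probe. With single arrays left out, some or all of the 4 averaged calls were lost, depending on the array. Of all the settings, 16 tested day 7, with the tile setting among them. Over those, Ppil1 at day 7 stayed between 0.79 and 1.33 and was called in 7.

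With the replicate number as a block, 0 were called at day 7 (1.23% of all probes, Ppil1 limma adjusted p = 0.0843) and 3 on average (6.1%). Median centring called 7 at day 2 (34.5% of all probes), 6 at day 4 (21.5%), 7 at day 7 (19.2%) and 11 on average (57.1%). It turned above 0 the dimmer Ppib probe at day 2 (0.64) and the brighter at day 7 (0.77). The averages of Ppia (0.68), Ppic (0.77), Ppif (0.35), Hsp90ab1 (0.51), Ppp3ca (0.47), Pdia3 (0.46) and Slc25a4 (0.84) turned above 0 too. Under that scaling the median of all probes tested stood at 0.15 to 0.36, and the cause of the other changes was not tested. Leaving out an array lowers the residual degrees of freedom, and a day's lone array was assumed to vary like the other days. Counts of 0 for day differences and for single channels were 0 under each alternative run.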
